A study of Mus musculus and Homo sapiens with 12 samples.

Results

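Runs of narrow, closely spaced SIRT7 peaks were described on the autosomes of mouse embryonic fibroblasts (MEFs). A peak counted as narrow when it was under 2000 bp wide, and neighbouring narrow peaks with a gap under 1000 bp between them were joined into a chain. Chains of 2 or more peaks held 8687 member peaks in 4129 chains. These members were 18.2% of the 47797 narrow autosomal peaks (95% exact binomial interval 17.8 to 18.5) and 13.3% of all 65422 autosomal peaks. The whole MEF list had 72622 peaks. Members were chosen by peak width and gap, so both are given below as descriptions only. The remaining 39110 narrow autosomal peaks, which had no narrow neighbour that close, are called solitary.

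SIRT7 belongs to the sirtuins, enzymes that strip acetyl and related groups from lysines, and acts in the nucleus, where acetylated lysine 18 on histone H3 (H3K18Ac) is one of its substrates. The study asked about SIRT7 at long interspersed (L1) elements, mobile repeats that are scattered through mammalian genomes mostly as truncated copies and in a smaller number as full-length ones, and about their tethering to the nuclear lamina, the protein mesh under the nuclear envelope. Chromatin immunoprecipitation with sequencing (ChIP-seq) maps a protein by sequencing the DNA crosslinked to it. A peak caller then reports stretches where reads exceed the background, and it reports separate peaks where the stretch between them does not pass its threshold.

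The series had 12 samples in 7 groups. The list used here came from the SIRT7 ChIP of wild-type MEFs (strain 129s2, embryos of day 14.5, passages 2 to 3), recorded under replicate 1, with positions on mouse build mm9. A second list from the SIRT7 ChIP of wild-type K562 cells, an established human leukaemia line with an aneuploid karyotype (build hg19), was used for comparison. No treatment was labelled for either. Each cell type also had a SIRT7 ChIP labelled replicate 2, for which no separate list was used. The samples of H3K18Ac, of SirT7-/- MEFs and of input chromatin were not analysed here. Each cell type had 1 list, so nothing could be tested across samples and no p-value is given. Read depth is unknown from the lists. Intervals are at 95%, cover counting error alone and treat each peak as independent of the next. Since members of a chain come together, the intervals on shares of peaks in chains are too narrow.

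Most chains were pairs. When autosomal peaks that scored at least 100 were chained anew by the same rule, there were 1260 chains. Lower scores were common outside chains too: 52.5% of members and 58.3% of solitary narrow peaks scored at least 100. Of the 4129 chains, 3719 (90.1%, interval 89.1 to 91.0) had 2 peaks, 392 (9.49%) had 3, 17 (0.412%) had 4 and 1 had 5. The median chain was 2224 bp from its first start to its last end (interval 2196 to 2244), with quartiles of 1802 and 2756 bp and extremes of 743 and 7317 bp. Pairs had a median length of 2140 bp, chains of 3 peaks 3449 bp and chains of 4 peaks 4998 bp. The chains together spanned 9.66 Mb, and the member peaks in them covered 8.16 Mb, which was 6.73% of the 121 Mb under all autosomal peaks. In the median chain 87.9% of the length lay under peaks (quartiles 76.4 and 95.4%), so the unmarked stretches were a small part of most chains.

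**Figure D1:**
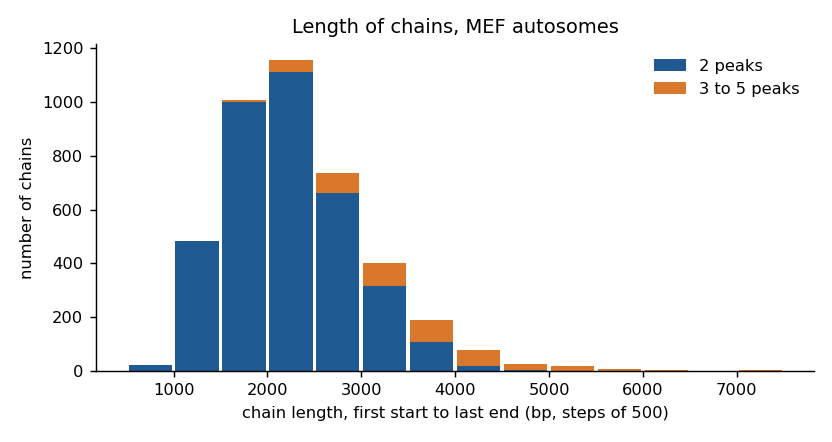
Number of chains on the MEF autosomes (y axis) by chain length in steps of 500 bp (x axis), split into chains of 2 peaks (blue) and of 3 to 5 peaks (orange). The fullest step is 2000 to 2500 bp with 1158 chains, and each step from 6000 bp upwards holds 1 to 3 chains.

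Chain lengths had no group like that of the wide single peaks of the same list. Chains of 4.25 to 5.25 kb numbered 69, chains of 5.25 to 6.25 kb 16 and chains of 6.25 to 7.25 kb 3. Single autosomal peaks in the same ranges numbered 1437, 6818 and 1123. The rule allows a pair at most 4997 bp, so only chains of 3 or more peaks could reach the second range. Of the chains, 2619 (63.4%, interval 61.9 to 64.9) were 2000 bp or longer and would have counted as wide had they been called as a single peak.

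The gaps inside chains were mostly far below the limit of 1000 bp. Their median over 4558 gaps was 234 bp (interval 222 to 247), with quartiles of 85 and 541 bp and a shortest gap of 1 bp. Gaps under 50 bp made up 15.7%, gaps under 100 bp 28.5% (1297 gaps) and gaps under 500 bp 72.4%. Gaps of 900 to 1000 bp numbered 209 and gaps of 1000 to 1100 bp, outside the rule, 196. At the limit itself the list had no step: 104 gaps measured 950 to 1000 bp and 104 measured 1000 to 1050 bp, and the median scores of the peaks beside them were 92.8 and 88.2. The score is taken here to be the value that the authors' peak caller gave each peak, though no header names it. In MACS 1.4 that value is 10 times the negative log10 of the peak's p-value. The lowest score in the list was 50.0. At the width limit, 876 autosomal peaks were 1900 to 2000 bp wide with a median score of 330, and 867 were 2000 to 2100 bp wide with a median of 362. The 140 chain members among the peaks just inside that limit had a median of 187.

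**Figure D2:**
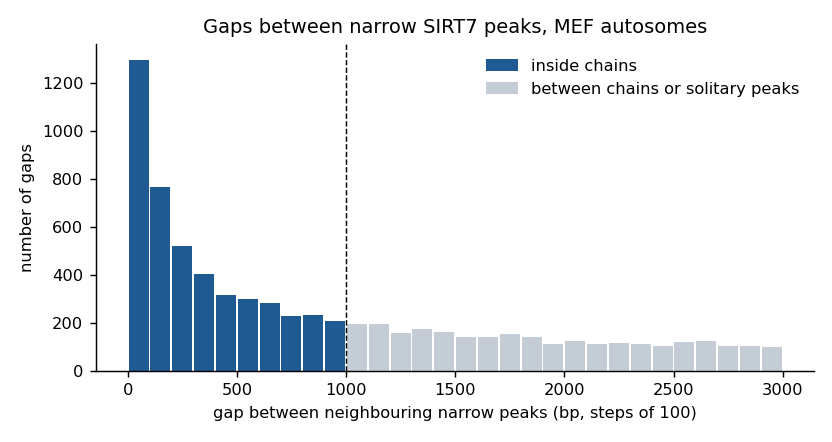
Number of gaps between neighbouring narrow peaks on the MEF autosomes (y axis) by gap size in steps of 100 bp (x axis), with gaps inside chains in blue, gaps of 1000 bp or more in grey and the limit of the rule as a dashed line. The first step holds 1297 gaps, the last step under the limit 209 and the step from 2900 bp 101.

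The chain with the most peaks lay on chromosome 15 from 72078919 to 72086006 and held 5 peaks of nearly equal width. From left to right they were 895, 926, 937, 948 and 934 bp wide, with scores of 88.0, 55.1, 62.9, 74.4 and 89.2. The gaps between them were 770, 760, 760 and 158 bp, so the first to the fourth peak started 1665, 1686 and 1697 bp apart and the fifth followed 1106 bp after the fourth. This near-even spacing was picked out after the values were seen. Its peaks covered 65.5% of its 7088 bp.

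The longest chain spanned 7317 bp on chromosome 1 from 7932831 to 7940147. Its 4 peaks were 1807, 1585, 1547 and 1072 bp wide and scored 84.4, 92.8, 56.2 and 61.7. A second chain on chromosome 1, from 114129616 to 114136607 (6992 bp), had 4 peaks that scored 60.0, 64.0, 61.1 and 53.5. The 2 inner peaks of that chain were 1595 and 1596 bp wide. On chromosome 12 from 70156062 to 70162285 (6224 bp), 4 peaks scored 103, 96.2, 61.95 and 103. On chromosome 2 from 106760875 to 106766484 (5610 bp), 4 peaks scored 66.2, 68.3, 97.9 and 70.5 and covered 92.2% of the chain. These 4 chains were the longest of the 17 tied at 4 peaks. All 21 peaks of the 5 chains named so far scored below the median of the wide autosomal peaks, 273. Scores rose with width in this list and only 16.3% of all members reached 200, so this does not set these chains apart.

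**Figure D3:**
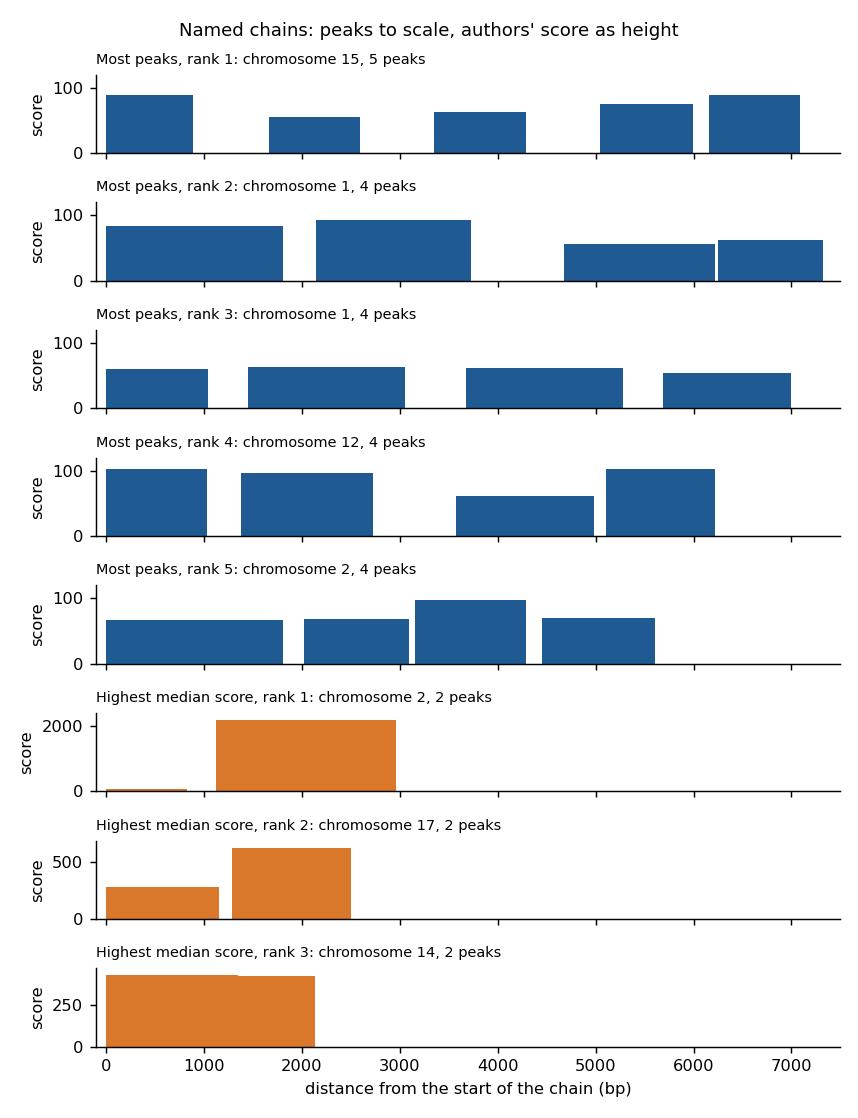
Peaks of 8 named chains drawn to scale along the distance from the start of the chain in bp (x axis), with the authors' score as height (y axis, which has its own range in each orange panel). The blue panels are the chain of 5 peaks and the 4 longest of the 17 chains of 4 peaks, with scores of up to 103, and the orange panels are the 3 chains with the highest median score.

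The 3 chains with the highest median scores were all pairs, as were 90.1% of all chains. The median of a pair is the mean of its 2 scores, so 1 high score is enough to raise it. On chromosome 2 from 98504899 to 98507861, a peak of 834 bp with a score of 71.0 stood 291 bp before a peak of 1838 bp with a score of 2181, the highest of all members. On chromosome 17 from 51407227 to 51409730, the scores were 280 and 623 over widths of 1156 and 1210 bp. On chromosome 14 from 12174784 to 12176921, the scores were 427 and 424, and 2 bp separated the peaks. The next 2 member peaks by score had 714 (chromosome 6 from 122816379 to 122817546) and 693 (chromosome 18 from 28325016 to 28326730). Their partners scored 54.8 and 54.3. These members were picked for their high score, so a lower partner follows in part from the choice.

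Within pairs, where sorting the scores by itself sets them apart, the higher score had a median of 157 (interval 153 to 161) and the lower one a median of 78.3 (76.8 to 79.8). In 47.8% of pairs 1 peak scored at least 100 and the other less, in 31.3% both reached 100 and in 20.9% neither did. The wider peak had the higher score in 70.2% of pairs (interval 68.7 to 71.7), and the left peak had it in 49.99% (48.4 to 51.6). Across the 4558 neighbours in chains, Spearman's rho was 0.02 for their scores and 0.29 for their widths. Across 8973 narrow neighbours that stood 1 to 10 kb apart, it was 0.03 and 0.10. These correlations are descriptions over peaks of 1 list and all peaks share its depth. A peak's score therefore said little about that of its chain neighbour, while widths were somewhat alike.

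Chains of more peaks had lower scores. The median score was 109 (interval 107 to 111) for peaks in pairs, 84.2 (80.5 to 87.2) in chains of 3 and 68.0 (62.95 to 72.3) in chains of 4. Median widths were 847, 845 and 949 bp. Of the 18 chains of 4 or 5 peaks, 12 had every score under 100. In chains of 3 or more, the 429 inner peaks had a median score of 84.5 (79.4 to 89.8), the left ends 85.2 and the right ends 79.7 (75.2 to 85.2), so inner and outer peaks had overlapping intervals. Peaks on either side of a gap under 100 bp had a median mean score of 127 (123 to 131) and those beside a gap of 500 to 1000 bp 104 (101 to 108), with mean widths of 949 and 828 bp. Closer peaks were thus also wider, and the part of width in their score was not tested.

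Chain members scored lower than solitary narrow peaks although they were wider. Their median score was 104 (interval 102 to 106) against 118 (116 to 119), a difference of -13.6 with a range of -16.4 to -10.3 from the ends of both intervals. Their median width was 848 bp against 760 bp. High scores were rare among them: 1418 members (16.3%, interval 15.6 to 17.1) reached 200, against 27.3% (26.8 to 27.7) of solitary peaks. A score of 500 was reached by 37 members (0.426%, 0.300 to 0.587), against 1363 solitary peaks (3.49%, 3.31 to 3.67). The member median lay below the solitary median on each of the 19 autosomes. The size of the difference depended on the limits: it was -7.635 with gaps under 500 bp and -55.7 among peaks of 750 bp or wider.

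The difference widened with peak width. Among peaks of 250 to 500 bp, members had a median score of 72.4 and solitary peaks 74.6, with overlapping intervals (69.7 to 75.2 and 74.05 to 76.2). Among peaks of 750 to 1000 bp the medians were 104 and 137, and among peaks of 1000 to 1250 bp 135 and 205. Among the widest, 1750 to 2000 bp, 368 members had a median of 178 (155.5 to 192) and 1829 solitary peaks 348 (334 to 366), a difference of -170. From 500 bp upwards the intervals of members and solitary peaks did not overlap in any step. The share of narrow peaks that lay in chains was 12.5% at 250 to 500 bp, went up to 23.2% at 1000 to 1250 bp and was 16.8% at 1750 to 2000 bp.

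**Figure D4:**
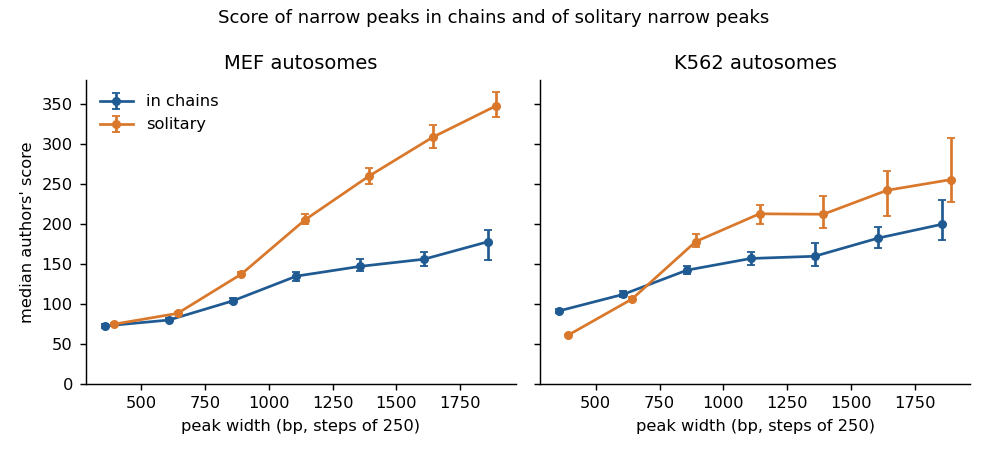
Median authors' score (y axis) of narrow peaks in chains (blue) and of solitary narrow peaks (orange) by peak width in steps of 250 bp from 250 bp (x axis), on the MEF autosomes (left) and the K562 autosomes (right). Bars are 95% order-statistic intervals. In MEFs the medians part from 74.6 against 72.4 in the first step to 348 against 178 in the last, and in K562 the curves cross after the second step.

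Over all K562 autosomes together, the same rule put a larger share of narrow peaks in chains, with the opposite overall difference in score. On the K562 autosomes 10568 of 38578 narrow peaks (27.4%, interval 26.9 to 27.8) lay in 4718 chains, of which 79.1% were pairs. The share ran from 14.3% on K562 chromosome 19 to 36.6% on chromosome 4, against 16.2 to 20.3% across the MEF autosomes. Narrow peaks were 94.6% of the K562 autosomal peaks and 73.1% of the MEF ones. The median chain was 1904 bp long and the median gap was 220 bp, close to the 234 bp of MEFs. Members had a median score of 121 and solitary peaks 76.4, a difference of 44.3 (range 41.3 to 47.1), and median widths were 660 and 483 bp. Within steps of width the K562 difference was 30.5 at 250 to 500 bp, 5.93 at 500 to 750 bp and -35.7 at 750 to 1000 bp, and it lay between -59.8 and -52.6 in the 4 wider steps. Above 750 bp, members thus had the lower medians in both lists, with overlapping K562 intervals in the widest step (180 to 231 and 228 to 307). No test was made between the lists, which differ in species and whose depths are not known.

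Chains were found on every autosome at similar shares. The share of narrow peaks in chains was highest on chromosome 8 (20.3%, interval 18.7 to 22.0) and chromosome 18 (19.9%, 18.0 to 21.8). It was lowest on chromosome 14 (16.2%, 14.8 to 17.7) and chromosome 16 (16.96%, 15.3 to 18.7). The intervals of chromosomes 18 and 16 overlapped and those of 8 and 14 did not, though these were picked as extremes. Chains per Mb of span varied more, from 1.28 (1.08 to 1.50) on chromosome 11 to 2.11 (1.89 to 2.35) on chromosome 3, beside 14.2 and 24.1 narrow peaks per Mb. Across the 19 autosomes, Spearman's rho with the density of narrow peaks was 0.82 for chains per Mb and 0.15 for the share in chains, as a description. Members count among the narrow peaks and both densities use the same span, so the rho for chains per Mb follows partly from the counting. Chromosome 18 had the highest fraction of chains with 3 or more peaks (24 of 160, 15.0%, interval 9.85 to 21.5), and chromosome 16 the lowest (8 of 160, 5.00%, 2.18 to 9.61). These too were picked as extremes of the 19 autosomes, and their intervals nearly met.

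The X chromosome was outside the rule. With the same limits, 1189 of its 5200 narrow peaks (22.9%, interval 21.7 to 24.0) lay in 560 chains, 3.42 per Mb (3.14 to 3.72). Both values were above those of each autosome, and so was the density of narrow peaks, 31.8 per Mb on X against at most 24.1. Among peaks that scored at least 100, the shares on X (10.6%, 9.50 to 11.8) and chromosome 8 (11.8%, 10.2 to 13.7) had overlapping intervals. The autosomes together had 9.28% (8.94 to 9.63) at that limit. With scores from the median up, X had 6.12% (5.09 to 7.29) and chromosome 8 5.76% (4.33 to 7.48). The order of X and chromosome 8 under a score limit was therefore not settled. X chains were somewhat shorter, with a median of 2061 bp (1988 to 2135), and their median gap of 233 bp was within the interval of the autosomes. Members on X also scored lower than solitary peaks, with medians of 99.8 and 115.

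**Figure D5:**
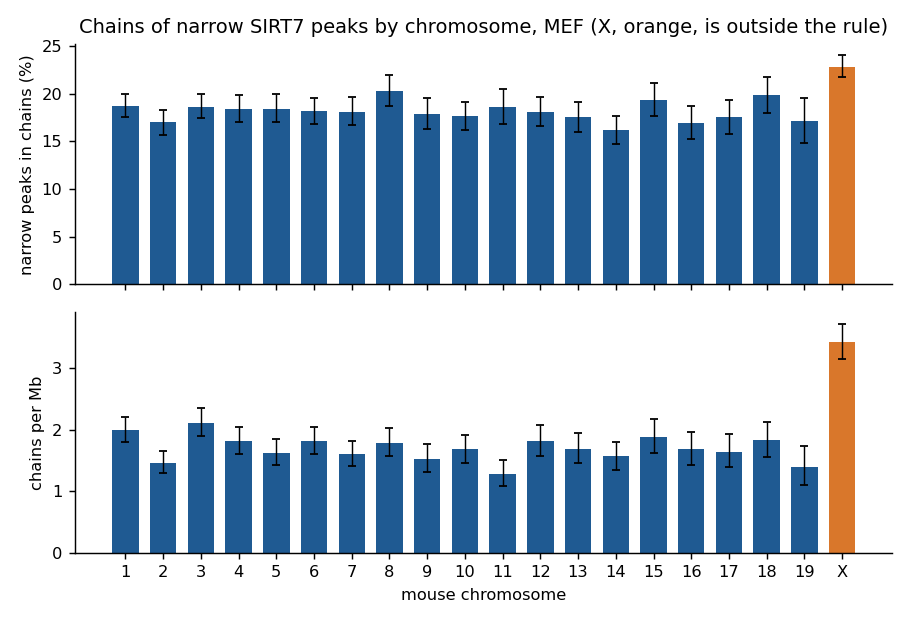
Share of narrow peaks that lie in chains (top, percent) and chains per Mb of span (bottom) for each mouse chromosome (x axis), with 95% exact binomial and Poisson intervals as bars. The share runs from 16.2% on chromosome 14 to 20.3% on chromosome 8 among the autosomes (blue), and chromosome X (orange) has 22.9% and 3.42 chains per Mb.

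Along the autosomes the chains were spread widely. Of the 2411 bins of 1 Mb with a narrow peak, 1749 (72.5%) had a chain, and the median bin had 1. Neighbouring chains were a median of 303 kb apart (quartiles 116 and 707 kb), and 178 chains (4.31%) had another chain within 10 kb. The bins with the most chains, picked after the values were seen, were 57 to 58 Mb of chromosome 6 with 11 chains and 79 to 80 Mb of chromosome 4 with 10. The share of narrow peaks in chains was 11.2% (10.4 to 12.1) in bins of 1 to 12 narrow peaks, 15.0% in bins of 13 to 19, 18.8% in bins of 20 to 27 and 21.2% (20.7 to 21.8) in bins of 28 to 56. Members count among the narrow peaks that sort the bins, so this order follows partly from the grouping.

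Chains seldom lay directly beside a wide peak. A peak of 2000 bp or wider stood within 1 kb of 59 chains (1.43%, interval 1.09 to 1.84) and of 1376 solitary narrow peaks (3.52%, 3.34 to 3.71). Peaks of 5.25 to 6.25 kb, the width group that stands out in this list, were within 1 kb of 2 chains (0.0484%, 0.00587 to 0.175) and of 114 solitary peaks (0.291%, 0.240 to 0.350). Within 10 kb the shares for that group were alike, 6.56% (5.83 to 7.36) and 6.34% (6.10 to 6.58). Members of chains with a wide peak within 1 kb had a median score of 78.1 (68.5 to 87.7), against 105 (103 to 106) in the other chains. Solitary peaks had 81.2 beside a wide peak and 120 elsewhere.

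Few chains had exactly the widths and gaps of another. The widths and the gap of a chain recurred to the base for 4 autosomal chains in 2 layouts, all of 2 peaks. On chromosome 4, peaks of 480 and 725 bp with a gap of 356 bp lay at 121879638 to 121881198 and again 262 kb further on at 122141271 to 122142831, with median scores of 97.6 and 98.0. On chromosome 7, peaks of 566 and 1049 bp with a gap of 390 bp lay at 33472929 to 33474933 and 227 kb further on at 33699825 to 33701829, with median scores of 103 and 106. Each layout thus recurred on its own chromosome with nearly the same score. When widths and gaps could differ by up to 5 bases, 53 autosomal chains had a match. How many chains would match by coincidence was not computed. No genome or annotation of mm9 was used here, so chains are named by position, without genes, repeats or sequence.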

How the data were processed

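SIRT7 ChIP-seq peaks of wild-type MEFs (mm9) and K562 cells (hg19) were analysed. Per the labels' protocols, formaldehyde (1%, 10 minutes) was used to crosslink the cells, nuclear extracts were sonicated to 150 to 300 bp and libraries were selected at 350 to 400 bp. Peak calling with MACS 1.4.2 and alignment with Bowtie, beside SAMtools 0.1.19, Trimmomatic 0.36, deepTools 2.4.2 and FastQC 0.11.3, are listed in the submitters' processing notes. Not given in the sources used here are settings, the control, the handling of reads with several matches and any pooling of replicates. The deposited lists hold peak positions and a column read here as the authors' score. That column has no header and its place differs between the MEF and K562 lists.

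The members, comparisons and alternatives were chosen with earlier results of these data known. Chains, medians with order-statistic intervals, exact binomial shares and Poisson densities were computed with scipy 1.17.1, pandas 2.3.3 and numpy 2.4.6 under Python 3.11.15 and drawn with matplotlib 3.10.9, after the code was tested on simulated data. Densities use the span from first to last peak of a chromosome. Named were the 5 chains with most peaks (ties by length, which chose 4 among 17 chains of 4 peaks), the 3 longest, the 3 with the highest median score, the 3 highest members, and the 2 chromosomes with the highest and lowest shares. Positions count from 1. Reference tables of another mouse build were not used. Alternatives changed the limits of width, gap, chain size and score, the chromosomes, bins, span and the tolerance of layouts. The score difference among peaks of 750 bp or wider was added after the data were seen.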

Additional observations from a re-analysis of the deposited data

Results flagged for a closer look

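Chain members and solitary narrow peaks differed in median score in opposite directions in the 2 lists, by -13.6 on the MEF autosomes and by 44.3 on the K562 autosomes. The lists have no replicates and the difference between them was not tested. K562 members were 177 bp wider than solitary peaks at the median and MEF members 88 bp wider, and among peaks of 750 bp or wider the differences were -55.7 in MEFs and -45.5 in K562.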

How the results depend on the processing

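Limits of 1000 and 3000 bp on width, of 500 and 2000 bp on gaps, of 3 peaks per chain and of scores of at least 100 or at or above the list's median define other sets of peaks, so values moved by construction. The lower MEF member score kept its direction under every alternative. With a width limit of 1000 bp there were 1898 chains and 3962 members (11.9% of narrow peaks), 91.7% of chains were pairs, the median length was 1783 bp and gap 286 bp, the score difference was -8.04, and 4.58% of chains lay beside a wider peak. With 3000 bp the share was 19.99%, length 2430 bp, gap 219 bp, score difference -21.3 and chains beside a wide peak 0.179%. With a gap limit of 500 bp the share was 13.4%, pairs 93.2%, length 2082 bp, gap 141 bp and score difference -7.635. With 2000 bp they were 24.1%, 86.7%, 2534 bp, 420 bp and -17.6. Chains of 3 or more numbered 410 with 1249 members (2.61%), a length of 3467 bp, a score difference of -33.0 and 0.244% beside a wide peak. That score difference is from all other narrow peaks, those in pairs included, and not from solitary peaks alone. With scores of at least 100 there were 1260 chains and 2537 members (9.28%), 98.7% pairs, a length of 2334.5 bp, a gap of 180 bp, a score difference of -33.0 and 0.317% beside a wide peak. With scores at or above the median there were 406 chains and 814 members (4.43%), 99.5% pairs, a length of 2394 bp, a gap of 140 bp, a score difference of -45.6 and 0 beside a wide peak (upper bound 0.904%). With X added the share was 18.6%. In the order of width limits 1000 and 3000, gap limits 500 and 2000, scores of at least 100 and scores from the median up, the share was 13.6, 22.6, 14.8, 27.3, 11.8 and 5.76% on chromosome 8. It was 10.4, 17.8, 11.5, 22.3, 8.16 and 4.53% on chromosome 14, lower than on chromosome 8 in each case. It was 17.2, 24.4, 16.9, 30.8, 10.6 and 6.12% on X, and 21.0, 28.96, 20.95, 33.3, 23.4 and 24.3% on the K562 autosomes. The X score difference was -43.6 for scores at or above the median and -45.2 for peaks of 750 bp or wider, where the autosomes had -55.7. The K562 score difference was 36.8 at a width limit of 1000 bp and turned to -27.7 for scores of at least 100, -25.8 for scores at or above the median and -45.5 for peaks of 750 bp or wider. A limit on score removes low peaks from the comparison of scores itself. Before that limit, 39.2% of solitary and 60.05% of member K562 peaks reached 100. The peaks left were then chained anew, so a member that lost its partners counted as solitary. In MEFs 4557 of the original members reached 100, and the new chains held 2537 members. Score differences under a score limit, in MEFs too, are thus no independent check of their direction. The cause of the turn among wider peaks was not tested. In 500 kb bins, the densest 25% of bins had a share of 22.6%. Layouts equal within 5 bases were found for 53 autosomal chains. No paired analysis was possible because each cell type had 1 peak list. Unknown read depth limits every number, width and gap given here.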
